A study of Mus musculus with 21 samples.

Results

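The zinc finger genes Zfp600 to Zfp999 were followed in mouse embryonic stem cells (ESCs) that had or lacked the RNA helicase DDX6. They were taken as every protein-coding gene whose symbol in the Gencode M21 annotation is Zfp followed by a number of 3 digits starting at 600, which gave 171 of the 51467 genes in the count tables. Of these, 148 (86.5%) had 3 or more CPM, the count scaled to library size, in at least 3 of the 14 libraries and were tested among 14518 genes. Another 14 members had at least 1 count but stayed below that limit, with no more than 14 counts in any library, and 9 had no count in any library. The symbol numbers follow the order of naming and carry no function, so the protein-coding genes Zfp1 to Zfp599, of which 183 of 194 were tested, serve as the nearest comparison.

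The cells were wild-type V6.5 ESCs, a line from a cross of C57BL/6 and 129 mice, and 2 Ddx6 KO lines derived from them with CRISPR-Cas9. There were 3 cultures of wild type and 2 of each knockout clone, so the 4 Ddx6 KO cultures stand for 2 clones. All were grown with serum, LIF and both 2i inhibitors and labelled with 500 µM 4-thiouridine (4sU) for 30 min. From each culture the labelled RNA, called nascent RNA here, and the rRNA-depleted total RNA, called mRNA, were sequenced.

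Library totals were 2441639 to 3570192 counts for 4sU and 5724179 to 7369651 for total RNA, and the members took 0.837% to 0.962% of the 4sU counts and 0.536% to 0.566% of the total counts. Ddx6 itself, in which each clone carries a mutation, had 333 to 391 CPM in wild-type total RNA and 21.5 to 67.7 in Ddx6 KO. Its nascent RNA had 242 to 270.4 CPM in wild type and 145.3 to 231 in Ddx6 KO. The 9 ESC markers examined summed to 5352 to 5512 CPM of total RNA in wild type and 5294 to 5494 in Ddx6 KO, so the cells carry the markers of their label. Single ESC markers shifted in both directions under this sum, from a log2 change of -0.85 for Dppa5a to 0.59 for Nanog in mRNA. The 5 fibroblast markers summed to 3.33 to 5.73 CPM in wild type and 10.7 to 12.5 in Ddx6 KO with 3 of them below 1 CPM in every total library, and the 4 primed pluripotency markers summed to 140.3 to 153 CPM in wild type and 79.98 to 91.2 in Ddx6 KO. Dnmt3b made up most of the primed sum, with means of 128 CPM in wild type and 78.0 in Ddx6 KO. Otx2 went from 13.5 to 2.29 CPM and Pou3f1 from 6.99 to 4.52, and Fgf5 was near 0 in both. The part of these shifts in the members' changes was not tested, and in bulk RNA fewer cells of a type and less RNA per cell cannot be told apart. Unless another unit is named, CPM is given after scaling by TMM, a method that sets libraries to a common scale despite a few very abundant genes.

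Most C2H2 zinc finger proteins bind DNA through rows of fingers, each a short loop held around a zinc ion by a pair of cysteines and a pair of histidines. Many vertebrate members also carry a KRAB domain, which recruits TRIM28 (also called KAP1) and through it SETDB1, the enzyme that writes the repressive mark H3K9me3. In ESCs this pathway silences endogenous retroviruses and other transposable elements, and KRAB zinc finger genes have multiplied into arrays of close copies on several mouse chromosomes. DDX6 is a cytoplasmic helicase of P-bodies that takes part in mRNA decapping and in translational repression.

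The coding sequences of the members carry these features. Among the tested members, the median count of finger patterns in the coding sequence was 11, with a highest count of 33, and 96 of 148 (64.9%) held a match to the core of a KRAB domain. The same KRAB match was found in 40.4% of the tested Zfp1 to Zfp599 genes and in 2.07% of all tested protein-coding genes. Of the tested members, 5 held no match to the strict finger pattern: Zfp703, Zfp750, Zfp781, Zfp839 and Zfp972.

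A single finger shows how alike the neighbouring copies are. The first finger matched in Zfp992 (chr4:146466541-146466624, plus strand, exon 4 of 4), in Zfp991 (chr4:147178885-147178968, plus strand, exon 7 of 7) and in Zfp809 (chr9:22238758-22238841, plus strand, exon 5 of 6) is printed as 84 coding bases with the zinc-binding cysteine and histidine codons in capitals. Zfp992 and Zfp991 are the members that fell most in Ddx6 KO, and Zfp809 is a retrovirus repressor on another chromosome. The bases come from the Gencode M21 transcripts and the positions are on GRCm38.
Zfp992: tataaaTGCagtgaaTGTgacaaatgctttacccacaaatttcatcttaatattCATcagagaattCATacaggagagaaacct
Zfp991: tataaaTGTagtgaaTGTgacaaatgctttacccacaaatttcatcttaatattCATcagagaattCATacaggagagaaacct
Zfp809: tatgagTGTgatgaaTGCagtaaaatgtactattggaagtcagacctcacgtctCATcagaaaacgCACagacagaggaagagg

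The Zfp992 and Zfp991 stretches are almost the same, while Zfp809 keeps the 4 zinc-binding residues in a different setting. Over whole transcripts, 86.98% of the 50-base windows of Zfp991 and 43.7% of those of Zfp992 also occurred in a transcript of another gene, against 0% for Zfp809. Of the 148 tested members, 36 had more than 20% of their windows in other genes. The counts rest on uniquely mapped reads, so a read that fits several places is missing from them, and the values of such members are uncertain. The line carries C57BL/6 and 129 alleles, which the counts do not separate.

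Promoters in the largest array were also close copies. Promoters of 300 bases, from 250 before to 50 after the start, were taken from RefSeq on GRCm38.p6, which held an entry for 144 of the 171 members. The following 6 belong to the chromosome 4 cluster described in the comparison of genotypes and are shown because their genes differ in response: Zfp600 (chr4:146156577-146156876, plus), Zfp982 (chr4:147492167-147492466, plus), Zfp985 (chr4:147553027-147553326, plus) and Zfp988 (chr4:147305354-147305653, plus) had lower mRNA in Ddx6 KO. For Zfp979 (chr4:147642459-147642758, minus) no change passed the test, and Zfp933 (chr4:147848369-147848668, minus) was higher. Capitals mark 1 of 2 runs of 21 bases, the longest that the first 5 share.
Zfp600: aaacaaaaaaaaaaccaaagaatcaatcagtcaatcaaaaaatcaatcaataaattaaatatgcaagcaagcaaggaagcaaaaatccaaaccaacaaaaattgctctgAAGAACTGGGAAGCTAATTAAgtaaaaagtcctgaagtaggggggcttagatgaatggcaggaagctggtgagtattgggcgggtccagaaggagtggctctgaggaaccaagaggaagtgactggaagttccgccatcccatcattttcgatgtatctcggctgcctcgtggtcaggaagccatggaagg
Zfp982: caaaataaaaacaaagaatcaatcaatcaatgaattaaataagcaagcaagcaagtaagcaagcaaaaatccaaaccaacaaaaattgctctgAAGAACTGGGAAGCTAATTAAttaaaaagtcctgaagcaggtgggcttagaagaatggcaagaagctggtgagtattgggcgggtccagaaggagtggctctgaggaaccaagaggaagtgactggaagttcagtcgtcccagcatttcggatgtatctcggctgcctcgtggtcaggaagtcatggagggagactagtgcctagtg
Zfp985: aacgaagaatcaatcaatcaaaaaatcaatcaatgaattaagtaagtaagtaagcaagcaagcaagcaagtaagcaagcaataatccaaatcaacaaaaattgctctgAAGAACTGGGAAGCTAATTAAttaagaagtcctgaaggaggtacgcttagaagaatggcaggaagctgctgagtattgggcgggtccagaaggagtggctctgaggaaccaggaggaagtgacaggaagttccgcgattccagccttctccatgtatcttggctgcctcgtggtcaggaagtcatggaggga
Zfp988: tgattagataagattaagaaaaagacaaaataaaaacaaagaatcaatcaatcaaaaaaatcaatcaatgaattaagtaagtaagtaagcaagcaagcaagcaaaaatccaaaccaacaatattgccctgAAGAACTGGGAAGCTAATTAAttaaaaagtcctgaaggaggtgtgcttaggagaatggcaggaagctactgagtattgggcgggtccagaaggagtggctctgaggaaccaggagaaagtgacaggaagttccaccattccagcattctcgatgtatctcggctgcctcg
Zfp979: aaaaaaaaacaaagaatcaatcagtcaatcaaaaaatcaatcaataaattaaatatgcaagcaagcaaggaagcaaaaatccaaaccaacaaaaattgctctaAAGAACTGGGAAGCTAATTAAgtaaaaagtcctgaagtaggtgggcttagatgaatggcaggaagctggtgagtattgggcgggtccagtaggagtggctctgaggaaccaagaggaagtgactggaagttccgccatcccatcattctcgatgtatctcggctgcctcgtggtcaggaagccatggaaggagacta
Zfp933: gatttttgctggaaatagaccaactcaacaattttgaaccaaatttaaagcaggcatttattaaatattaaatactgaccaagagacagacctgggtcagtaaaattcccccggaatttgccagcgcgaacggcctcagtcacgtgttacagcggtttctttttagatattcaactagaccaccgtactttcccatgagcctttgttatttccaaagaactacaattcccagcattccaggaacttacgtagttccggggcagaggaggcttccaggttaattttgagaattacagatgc

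The marked run, AAGAACTGGGAAGCTAATTAA, was found, on either strand, in 9 of 32851 RefSeq mouse promoters (0.0274%). Of these, 7 were members of the chromosome 4 cluster, of its 11 with an entry, and the other 2, Rex2 and Zfp534, lie in the same interval. The run was picked because 5 of these cluster promoters share it, so those 5 hold it by choice. The promoters of Zfp600 and Zfp979 matched at 96.7% of 300 positions, although their genes differed in response, and those of Zfp600 and Zfp933 matched at 50.7%. The CCAAT box was present in 9 of the 11 cluster promoters, in 86 of all 144 member promoters (59.7%) and in 37.4% of all promoters. The GC box core GGGCGG was in 8 of the 11, in 43.8% of member promoters and in 35.7% of all, while the TATA box TATAAA was in none of the 11, in 2.78% of member promoters and in 13.6% of all. The promoter letters were searched on both strands, and a match is a description of the sequence only.

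In wild-type ESCs the members were expressed at modest levels. Per kb of gene length, the median total RNA level of the tested members was 6.37 CPM per kb, at the 37.5th percentile of tested protein-coding genes, whose median was 10.4. The 5 members with the highest level per kb were Zfp979 (81.7 CPM per kb), Zfp990 (72.1), Zfp985 (52.8), Zfp961 (51.1) and Zfp622 (41.6), of which the first 3 sit together on chromosome 4. Zfp622 encodes a factor that matures the large ribosomal subunit.

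Total RNA of the members was low relative to their nascent RNA. Over the mean of 3 wild-type cultures, the median log2 ratio of total to 4sU was -0.86 for members against 0.07 for all tested genes, 0.32 for protein-coding genes and -0.77 for Zfp1 to Zfp599. The member median was -0.86, -0.83 and -0.89 in the 3 wild-type cultures and -0.80, -0.90, -0.83 and -0.79 in the 4 Ddx6 KO cultures, so the genotypes overlapped. The ratio was below 0 in every wild-type culture for 118 of 148 members, 3857 of 12110 protein-coding genes and 5995 of all 14518 tested genes. The ratio compares 2 scaled libraries, so its 0 carries no absolute meaning and only differences between genes are read from it.

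Called here means an edgeR adjusted p, which is the Benjamini-Hochberg adjusted p of the quasi-likelihood test over all 14518 genes, below 0.05 with a log2 difference above 1 in size. In wild type, 64 members (43.2%) were called lower in total than in 4sU and 3 were called higher, against 27.1% lower and 21.7% higher among all tested genes. In Ddx6 KO, 60 members were called lower and 2 higher, against 25.9% and 17.1% of all tested genes. Of the Zfp1 to Zfp599 genes, 75 of 183 (41.0%) were called lower in wild type. Among protein-coding genes outside the members whose total level lay in the middle range of the members, 2.66 to 12.99 CPM per kb, the median ratio was 0.20 over 4183 genes, against -0.74 for the 74 members in that range.

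**Figure D1:**
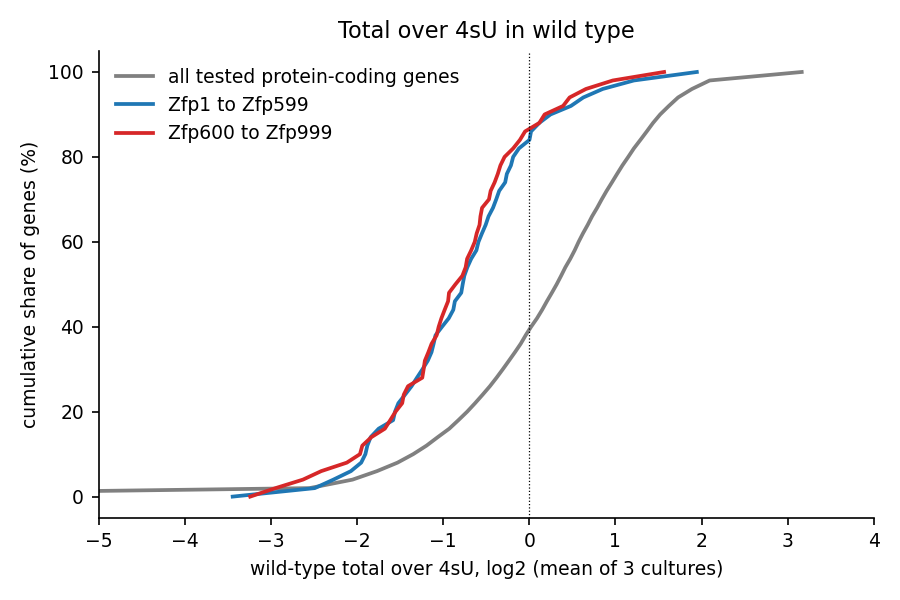
Cumulative share of genes (y axis, percent) against the wild-type log2 ratio of total to 4sU (x axis, mean of 3 cultures) for all tested protein-coding genes, the tested Zfp1 to Zfp599 genes and the tested members. The curves of both zinc finger groups lie close together and to the left of all protein-coding genes, with medians of -0.86 for members and 0.32 for protein-coding genes, whose lowest values are outside the axis.

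Members with a KRAB match had a median fitted ratio of -0.98 and those without one -0.58 in wild type, and the medians were -0.89 and -0.75 in Ddx6 KO. The shares called lower were 49.0% and 32.7% in wild type and 40.6% and 40.4% in Ddx6 KO. The lowest ratios among members with at least 3 CPM in every wild-type library were those of Zfp628 at -3.31 ± 0.15 (SE, edgeR adjusted p = 2.60e-28), Zfp672 at -3.29 ± 0.12 (SE, edgeR adjusted p = 2.26e-33), Zfp770 at -2.79 ± 0.10 (SE, edgeR adjusted p = 1.12e-29), Zfp959 at -2.60 ± 0.17 (SE, edgeR adjusted p = 2.27e-20) and Zfp773 at -2.48 ± 0.18 (SE, edgeR adjusted p = 7.14e-16). Zfp628 had 72.7, 67.1 and 55.1 CPM of nascent RNA in the wild-type cultures but 5.55, 6.88 and 6.89 CPM in total RNA.

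The highest ratios were those of Zfp692 at 1.58 ± 0.20 (SE, edgeR adjusted p = 1.93e-10), Zfp740 at 1.47 ± 0.09 (SE, edgeR adjusted p = 5.29e-23), Zfp808 at 1.01 ± 0.13 (SE, edgeR adjusted p = 1.19e-09), Zfp638 at 0.97 ± 0.07 (SE, edgeR adjusted p = 1.08e-18) and Zfp934 at 0.92 ± 0.29 (SE, edgeR adjusted p = 0.00313). Of these, Zfp638 is a large nuclear protein known from adipocyte differentiation and from silencing of unintegrated retroviral DNA. Zfp808 and Zfp934 are neighbours on chromosome 13 and share sequence, with 46.4% and 45.6% of their windows in other genes.

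Few members were called upon loss of DDX6, and how many were called in each direction depended on the scaling. In nascent RNA, 7 members were called lower and 2 higher, which is 4.73% and 1.35% of those tested, against 5.79% lower and 5.14% higher among all tested genes. In mRNA, 10 were called lower (6.76%) and 4 higher (2.70%), against 4.86% and 5.28% of all tested genes. Zfp618 and Zfp608, higher in nascent RNA, and Zfp618 and Zfp711, higher in mRNA, met the filter in Ddx6 KO libraries. The filter thus favoured a rise for these genes, and their calls do not support one. With 3 CPM asked for in all libraries of an assay, 0 members were called higher in nascent RNA and 2 in mRNA. Of the 183 Zfp1 to Zfp599 genes, 2 were called lower and 10 higher in nascent RNA, and 2 lower and 8 higher in mRNA.

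The median log2 change of the tested members was 0.00 in nascent RNA and -0.04 in mRNA, beside 0.00 and -0.10 for all tested genes. Scaling by library size alone raised the median of all genes by 0.20 in nascent RNA and 0.16 in mRNA. The calls of members then became 4 lower and 6 higher in nascent RNA and 6 lower and 7 higher in mRNA. The member median lay within 0.06 of the median of all genes under each scaling. A scaling moves all genes by nearly the same amount, so that distance could hardly change and is no check. At an adjusted p below 0.05 with no limit on size, 42 members were lower and 28 higher in nascent RNA, against 21% and 20.6% of all tested genes, and 41 were lower and 35 higher in mRNA, against 31% and 19.5%.

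**Figure D2:**
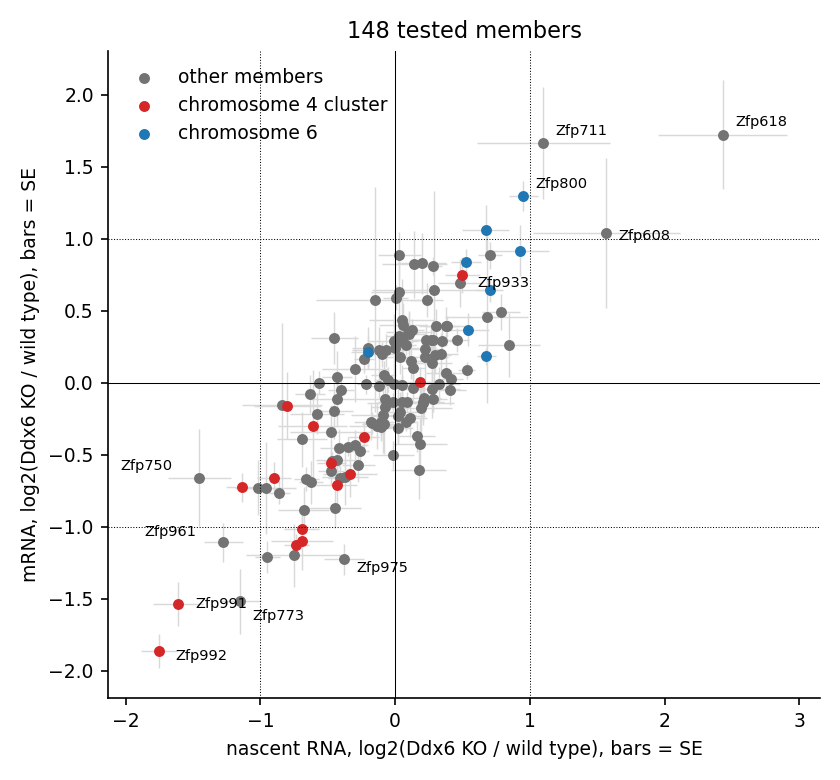
Log2 change from wild type to Ddx6 KO in nascent RNA (x axis) and in mRNA (y axis) for the 148 tested members, with bars of 1 SE and dotted lines at a log2 change of 1 in either direction. Zfp992 and Zfp991, of the chromosome 4 cluster (red), lie farthest down in mRNA, Zfp618 farthest up, and none of the chromosome 6 members (blue) lies below 0 in mRNA.

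The chromosome 4 cluster held the strongest falls. It spans 2.34 Mb of distal chromosome 4 (chr4:145510759-147848366, GRCm38) and holds 17 members, of which 15 were tested and all 15 of these had a KRAB match. Of the 15, 11 were lower and 1 was higher at an edgeR adjusted p below 0.05 in nascent RNA, and likewise 11 lower and 1 higher in mRNA. Among all tested genes, 21% were lower and 20.6% higher in nascent RNA, and 31% and 19.5% in mRNA. The median log2 change of the 15 was -0.69 in nascent RNA and -0.66 in mRNA. Of the 15, 13 lay below 0 in both, beside 6010 of all 14518 tested genes. Of the 133 tested members elsewhere, 31 were lower and 27 higher in nascent RNA and 30 lower and 34 higher in mRNA.

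Summed over the cluster, total RNA reached 1067, 1063 and 1116 CPM in the wild-type cultures, 802 and 752 CPM in Ddx6 KO clone 1 and 689 and 658 CPM in clone 2. Nascent RNA summed to 1013, 1080 and 1345 CPM in wild type, 869.9 and 947 in clone 1 and 874 and 715 in clone 2. Every Ddx6 KO culture was thus below every wild-type culture in both kinds of RNA.

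Zfp992 (ENSMUSG00000070605.4, chr4:146449023-146470292) fell furthest. Its nascent RNA was 75.4, 71.1 and 80.7 CPM in the 3 wild-type cultures and 27.7, 28.7, 18.4 and 15.8 CPM in the 4 Ddx6 KO cultures, a log2 change of -1.75 ± 0.14 (SE, edgeR adjusted p = 1.31e-14). Its mRNA was 59.1, 55.2 and 57.1 CPM in the 3 wild-type cultures and 19.9, 15.2, 14.4 and 13.5 CPM in the 4 Ddx6 KO cultures, a log2 change of -1.86 ± 0.12 (SE, edgeR adjusted p = 1.50e-17). The wild-type and Ddx6 KO values did not overlap in either RNA, and the fitted fall in mRNA was 3.64-fold.

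Zfp991, the source of the similar finger, gave 23.8, 25.9 and 25.9 CPM in the 3 wild-type cultures and 10.5, 8.62, 6.92 and 7.09 CPM in the 4 Ddx6 KO cultures in nascent RNA, a log2 change of -1.61 ± 0.19 (SE, edgeR adjusted p = 1.22e-10). In mRNA it gave 19.4, 19.2 and 20.96 CPM in the 3 wild-type cultures and 8.11, 7.19, 5.77 and 6.45 CPM in the 4 Ddx6 KO cultures, a log2 change of -1.53 ± 0.15 (SE, edgeR adjusted p = 9.17e-13). Both clones were below all wild-type cultures. As 86.98% of its windows are shared, its level is less certain than that of Zfp992.

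A further 3 members of the cluster were called lower in mRNA. Zfp981 gave 117, 119.7 and 113 CPM in the 3 wild-type cultures and 57.2, 52.01, 50.3 and 54.5 CPM in the 4 Ddx6 KO cultures, with a log2 change of -1.13 ± 0.08 (SE, edgeR adjusted p = 2.46e-18) in mRNA and -0.73 ± 0.10 (SE, edgeR adjusted p = 5.15e-09) in nascent RNA. Zfp600 gave 25.7, 30.3 and 34.4 CPM in the 3 wild-type cultures and 16.5, 15.7, 13.1 and 11.4 CPM in the 4 Ddx6 KO cultures, a log2 change of -1.09 ± 0.20 (SE, edgeR adjusted p = 2.68e-04). Zfp982 gave 55.2, 47.98 and 48.5 CPM in the 3 wild-type cultures and 28.9, 24.2, 25.8 and 21.2 CPM in the 4 Ddx6 KO cultures, a log2 change of -1.01 ± 0.10 (SE, edgeR adjusted p = 1.96e-12). In all of them the 4 Ddx6 KO cultures lay below the 3 wild-type cultures, and Zfp982, with 6.03% of its windows shared, shares least sequence of the 3. Zfp982 lies close to the threshold, being called under 7 alternative settings and short of a call under 11, and Zfp600 under 13 and 5.

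Zfp988 was called in nascent RNA, with 70.9, 63.8 and 91.8 CPM in the 3 wild-type cultures and 37.1, 39.9, 33.1 and 28.4 CPM in the 4 Ddx6 KO cultures and a log2 change of -1.14 ± 0.12 (SE, edgeR adjusted p = 2.08e-11), while its mRNA changed by -0.73 ± 0.10 (SE, edgeR adjusted p = 2.64e-08). The most abundant gene of the cluster in nascent RNA, Zfp990, changed by -0.43 ± 0.15 (SE, edgeR adjusted p = 0.044) in nascent RNA and by -0.71 ± 0.14 (SE, edgeR adjusted p = 0.00135) in mRNA. The neighbours Zfp978, Zfp984 and Zfp980, named after their values were seen, changed by -0.66 ± 0.11 (SE, edgeR adjusted p = 5.81e-06), -0.56 ± 0.09 (SE, edgeR adjusted p = 2.82e-07) and -0.38 ± 0.10 (SE, edgeR adjusted p = 0.00181) in mRNA. These genes also fell in mRNA, by less than a log2 change of 1. Zfp987 and Zfp989, with 93.1% and 74.3% of windows shared, were lower in nascent RNA at adjusted p = 0.04998 and 0.00816 by edgeR and did not pass in mRNA.

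Zfp979 and Zfp933 stood apart from the rest of the cluster. Zfp979, whose promoter nearly matches that of Zfp600, had 202, 209 and 224 CPM in the 3 wild-type cultures and 219, 206, 221 and 206 CPM in the 4 Ddx6 KO cultures in mRNA. The groups overlapped, and the change of 0.01 ± 0.10 (SE, edgeR adjusted p = 0.963) did not pass the test. Zfp933, also named after its values were seen, at the distal end and with an unlike promoter, rose from 15.7, 16.5 and 11.6 CPM in wild type to 24.2, 28.2, 22.02 and 23.3 CPM in Ddx6 KO, a log2 change of 0.75 ± 0.12 (SE, edgeR adjusted p = 9.69e-07). Its nascent RNA changed by 0.50 ± 0.13 (SE, edgeR adjusted p = 0.00128), and the Ddx6 KO cultures lay above all wild-type cultures in both.

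**Figure D3:**
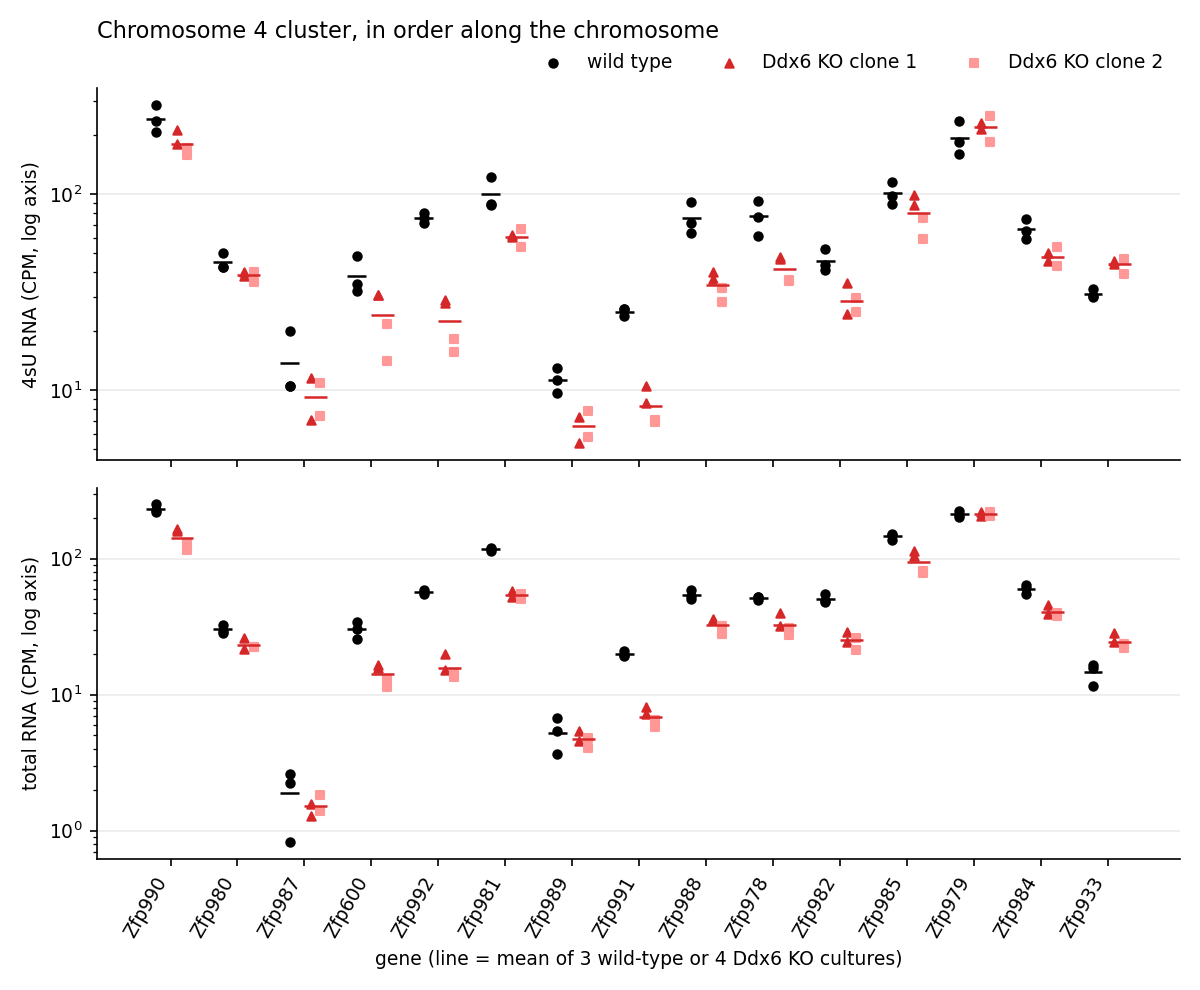
Nascent (4sU, upper panel) and total RNA (lower panel) in CPM on log axes for the 15 tested members of the chromosome 4 cluster in chromosomal order, with 1 point per culture and lines at the mean of the 3 wild-type (black) and 4 Ddx6 KO cultures (red, clone 2 in pale red). Most members are lower in Ddx6 KO, Zfp992 and Zfp991 by the widest gap, while Zfp979 overlaps and Zfp933 is higher.

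Other genes of the interval moved the same way. Within it, 33 tested genes were not members. At an adjusted p below 0.05, 21 of them were lower in nascent RNA, against 21% of all tested genes, while the other 12 did not pass. In mRNA 16 were lower, against 31% of all tested genes, while the other 17 did not pass. The median log2 change of the 33 was -0.84 in nascent RNA and -0.85 in mRNA. They comprised 24 pseudogenes with a median of -0.92 in nascent RNA, 4 long non-coding RNAs with -1.35 and 5 further protein-coding genes with -0.84. In the 1 Mb on either side of the cluster, the median over 32 genes was -0.35 in nascent RNA and -0.27 in mRNA. The non-coding RNA Gm26624, which starts within the span of Zfp991 and was named after its values were seen, changed by -2.19 ± 0.18 (SE, edgeR adjusted p = 2.70e-15) in nascent RNA. Where such genes share sequence with members, their counts are not independent of those of the members.

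The members formed 17 clusters of at least 3 genes whose starts lay no more than 1 Mb from the next, holding 111 members, of which 97 were tested. No cluster other than that on chromosome 4 had both medians of its tested members below -0.5. On proximal chromosome 17 (chr17:21383748-22867134), the next largest cluster, with 12 of 14 members tested, had medians of 0.02 and 0.19 in nascent RNA and mRNA. There, Zfp994 changed by 0.69 ± 0.16 (SE, edgeR adjusted p = 3.43e-04) in mRNA and Zfp944 by -0.57 ± 0.11 (SE, edgeR adjusted p = 1.91e-05), so neighbours moved in opposite directions.

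A cluster on distal chromosome 2 (chr2:174643534-178078476) had few tested members. Of its 11 members 4 were tested, and 7 had at most 5 counts summed over any group of libraries. Of these 7, Zfp965, Zfp967 and Zfp969 had all of their windows in other genes, while Zfp831 had none shared, so a count near 0 does not mean the same for each of them. The tested Zfp931 changed by -0.14 ± 0.14 (SE, edgeR adjusted p = 0.428) in mRNA which did not pass the test, and Zfp972 had 5 counts summed over the wild-type total libraries and 12 over those of Ddx6 KO. In the interval, 12 of the 18 other tested genes were lower in nascent RNA at an adjusted p below 0.05, against 21% of all tested genes. The medians of these 18 were -0.64 in nascent RNA and -0.58 in mRNA, beside -0.07 and 0.01 for the 4 tested members.

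On chromosome 7, chr7:41633531-43618285 held 9 tested members. At an adjusted p below 0.05, 5 of them were lower and 2 higher in mRNA, against 31% and 19.5% of all tested genes, and 1 was called lower. Zfp975 gave 41.1, 40.3 and 40.9 CPM in the 3 wild-type cultures and 17.5, 19.3, 15.6 and 17.2 CPM in the 4 Ddx6 KO cultures, a log2 change of -1.23 ± 0.11 (SE, edgeR adjusted p = 8.30e-15), and Zfp936 changed by -0.76 ± 0.08 (SE, edgeR adjusted p = 2.99e-10). Farther along the same chromosome (chr7:127244274-127885996), Zfp688 changed by -0.88 ± 0.16 (SE, edgeR adjusted p = 6.17e-06) and Zfp764 by 0.82 ± 0.23 (SE, edgeR adjusted p = 0.00255). In chr7:6131491-7209998, Zfp773 and Zfp772 went apart, by -1.52 ± 0.23 (SE, edgeR adjusted p = 4.91e-07) and 0.89 ± 0.16 (SE, edgeR adjusted p = 6.60e-06).

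Zfp773 had 53.8, 63.4 and 56.2 CPM in the 3 wild-type cultures and 19.8, 20.8, 24.1 and 38.3 CPM in the 4 Ddx6 KO cultures in nascent RNA and 12.8, 10.6 and 7.96 CPM in the 3 wild-type cultures and 3.98, 3.01, 4.06 and 3.38 CPM in the 4 Ddx6 KO cultures in mRNA. All Ddx6 KO cultures were lower in both. On chromosome 8 (chr8:71882019-71971716), Zfp961 gave 149.8, 149.8 and 161 CPM in the 3 wild-type cultures and 76.6, 79.8, 68.03 and 60.04 CPM in the 4 Ddx6 KO cultures, a log2 change of -1.11 ± 0.13 (SE, edgeR adjusted p = 1.73e-05) in mRNA and of -1.27 ± 0.14 (SE, edgeR adjusted p = 1.14e-05) in nascent RNA, with no window shared. Its neighbour Zfp709 changed by 0.29 ± 0.11 (SE, edgeR adjusted p = 0.0236). Of the other 2 members there, named after their values were seen, Zfp882 changed by -0.63 ± 0.11 (SE, edgeR adjusted p = 4.06e-06) in nascent RNA and -0.08 ± 0.13 (SE, edgeR adjusted p = 0.653) in mRNA, and Zfp617 by -0.01 ± 0.13 (SE, edgeR adjusted p = 0.974) in mRNA. The median of the 4 was -0.32 in nascent RNA and -0.04 in mRNA.

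In the remaining clusters most changes were below 1 on the log2 scale. Their leading pairs by mRNA change were Zfp934 (-1.20) and Zfp808 (-0.50) at chr13:62129886-62558629, Zfp738 (-0.37) and Zfp712 (0.29) at chr13:67038594-67683551, Zfp871 (0.81) and Zfp763 (0.59) at chr17:32771236-33033402, and Zfp623 (0.57) and Zfp707 (0.40) at chr15:75940952-76918010. All of these passed an adjusted p of 0.05 except Zfp712. At chr10:81901911-82241273, chr7:27807196-28014115, chr7:4915217-5038446 and chr8:69209038-69791178 the leading members were Zfp781 (0.64), Zfp626 (0.33), Zfp784 (0.46) and Zfp930 (-0.48), with Zfp873 (-0.20), Zfp974 (0.23), Zfp865 (-0.27) and Zfp963 (0.44) next. Of these 8, Zfp626 and Zfp930 passed.

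**Figure D4:**
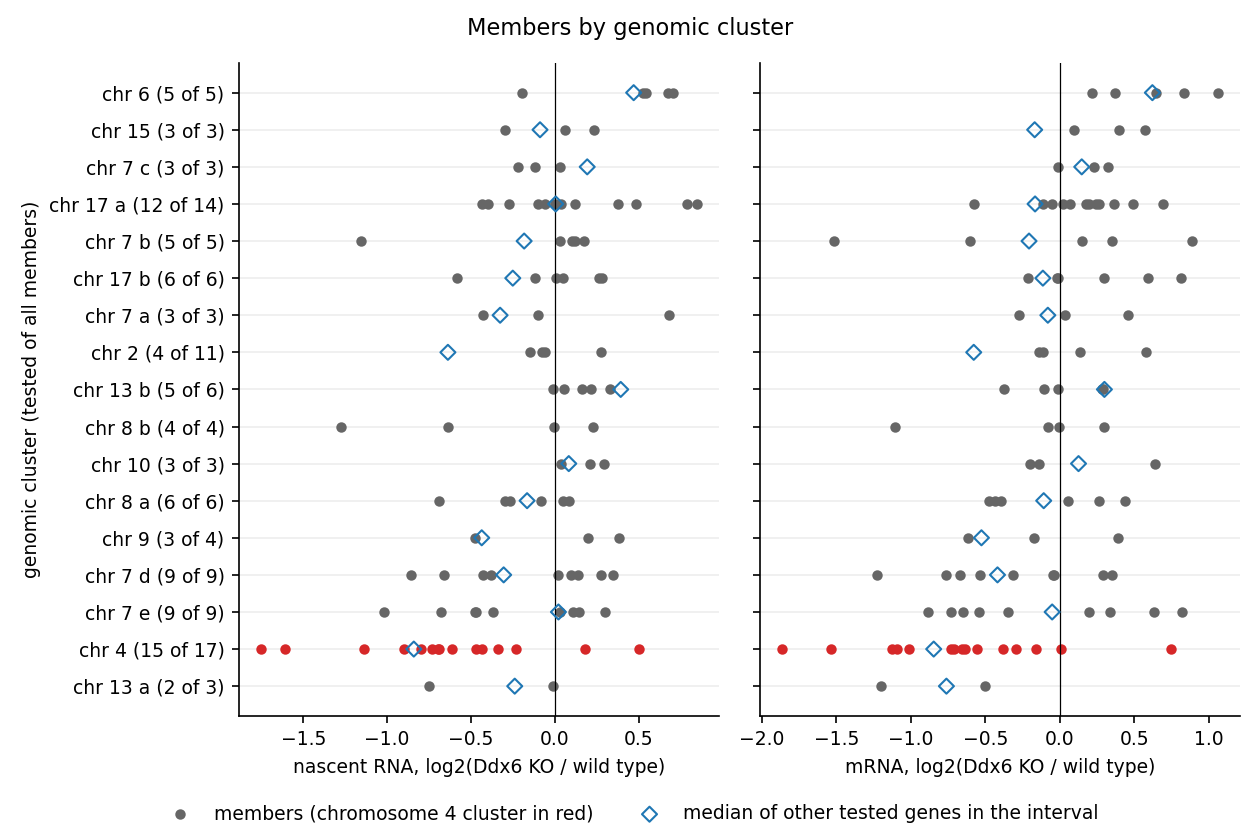
Log2 change from wild type to Ddx6 KO in nascent RNA (left) and mRNA (right) for each tested member (points) of the 17 clusters, ordered by median mRNA change, with open diamonds for the median of the other tested genes in the same interval. The chromosome 4 cluster (red) holds the lowest members, and its other genes have a median of -0.85 in mRNA, while the chromosome 6 members all lie above 0 in mRNA. The smaller chromosome 8 cluster has no other tested gene.

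Members on chromosome 6 were higher together with their chromosome. All 8 were tested, 7 were higher at an adjusted p below 0.05 in nascent RNA and 7 in mRNA, beside 58.6% of all tested genes of chromosome 6 in each, and their medians were 0.67 and 0.74. All 735 tested genes of chromosome 6 had medians of 0.53 and 0.43, against -0.02 and -0.12 on the other chromosomes. The part that the chromosome-wide shift has in the members' values was not tested. No DNA was measured. For chromosome 6 and for the intervals on chromosome 4 and distal chromosome 2, a change in gene copies and a change in RNA per copy thus cannot be told apart. Without these 8, the members called higher in mRNA went from 4 to 2.

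Zfp800 and Zfp786 are the chromosome 6 members called higher in mRNA. Zfp800 had 21.7, 22.9 and 18.97 CPM in the 3 wild-type cultures and 53.7, 50.1, 53.2 and 50.8 CPM in the 4 Ddx6 KO cultures, a log2 change of 1.30 ± 0.10 (SE, edgeR adjusted p = 2.66e-16). Zfp786 had 5.74, 5.57 and 6.12 CPM in the 3 wild-type cultures and 13.4, 11.5, 13.2 and 10.6 CPM in the 4 Ddx6 KO cultures, a log2 change of 1.06 ± 0.17 (SE, edgeR adjusted p = 6.17e-07). The groups did not overlap for either gene. Zfp746, also known as PARIS and a substrate of the ubiquitin ligase parkin, changed by 0.84 ± 0.10 (SE, edgeR adjusted p = 6.67e-11) in mRNA.

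The other members called higher were near the limit of detection in wild type. Zfp618 on chromosome 4, outside the cluster, had 4, 2 and 3 counts of nascent RNA in wild type and 18, 19, 18 and 33 in Ddx6 KO, a fitted log2 change of 2.43 ± 0.48 (SE, edgeR adjusted p = 3.31e-05). Its total RNA had 4, 4 and 13 counts in wild type and 31, 39, 20 and 19 in Ddx6 KO, with 1.72 ± 0.38 (SE, edgeR adjusted p = 1.15e-04). In both, the Ddx6 KO cultures were above the wild-type cultures in CPM. All its wild-type libraries were below 3 CPM, so it passed the filter through Ddx6 KO libraries alone. The filter itself thus required higher values in Ddx6 KO.

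Zfp711, an X-linked gene in which mutations cause intellectual disability, had 2, 8 and 12 counts of total RNA in wild type and 20, 34, 33 and 23 in Ddx6 KO, with 1.66 ± 0.39 (SE, edgeR adjusted p = 2.95e-04). Its nascent RNA changed by 1.10 ± 0.49 (SE, edgeR adjusted p = 0.0674), which did not pass the test. Zfp711 met the filter in its Ddx6 KO total libraries, while its wild-type total libraries were each below 3 CPM. Zfp608, a relative of Zfp609, had 3, 4 and 2 counts of nascent RNA in wild type and 6, 13, 11 and 18 in Ddx6 KO, with 1.57 ± 0.55 (SE, edgeR adjusted p = 0.0173). It passed the filter through 3 Ddx6 KO libraries. Its call was lost with the re-sequencing run alone, at 0.56 (edgeR adjusted p = 0.607), and without wild type replicate 3, at 1.30 (edgeR adjusted p = 0.0862), and under 6 further settings it did not pass the filter. The sizes of these changes rest on few wild-type counts. For Zfp711 and Zfp608, as for Zfp618, the filter favoured higher values in Ddx6 KO, so their adjusted p values do not support a rise.

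The rest of the called falls were spread over other chromosomes. Zfp750, known from epidermal differentiation, had 21.6, 16.04 and 24.8 CPM in the 3 wild-type cultures and 6.51, 12.1, 7.22 and 4.99 CPM in the 4 Ddx6 KO cultures in nascent RNA, a log2 change of -1.45 ± 0.23 (SE, edgeR adjusted p = 5.46e-07), while its mRNA change of -0.66 ± 0.34 (SE, edgeR adjusted p = 0.0984) did not pass the test. Zfp629 changed by -1.02 ± 0.17 (SE, edgeR adjusted p = 1.84e-06) in nascent RNA, a call that 10 alternative settings kept and 8 lost. Zfp960 had 35.2, 33.2 and 36.9 CPM in the 3 wild-type cultures and 15.1, 15.7, 13.5 and 16.6 CPM in the 4 Ddx6 KO cultures in mRNA, a log2 change of -1.21 ± 0.11 (SE, edgeR adjusted p = 2.38e-14), and 84.5% of its windows are shared, mostly with Zfp97. Zfp934 had 9.81, 9.17 and 9.64 CPM in the 3 wild-type cultures and 3.66, 6.01, 4.06 and 2.61 CPM in the 4 Ddx6 KO cultures, a log2 change of -1.20 ± 0.22 (SE, edgeR adjusted p = 6.44e-06). In each case the named RNA was lower in all Ddx6 KO cultures than in all wild-type cultures.

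Among members with a known role in silencing retroelements, Zfp809, which in ESCs binds the primer binding site of murine leukaemia virus and brings in TRIM28, had 59.2, 56.5 and 58.6 CPM in the 3 wild-type cultures and 40.7, 39.2, 36.6 and 35.3 CPM in the 4 Ddx6 KO cultures in mRNA. That is a log2 change of -0.61 ± 0.09 (SE, edgeR adjusted p = 9.97e-08), with -0.47 ± 0.10 (SE, edgeR adjusted p = 6.56e-05) in nascent RNA, and the groups did not overlap. Zfp819 and Zfp932, also tied to retroelement repression, changed by -0.04 ± 0.10 (SE, edgeR adjusted p = 0.776) and -0.13 ± 0.18 (SE, edgeR adjusted p = 0.58) in mRNA, and neither passed the test. At chr9:22055460-22307648, Zfp810, a neighbour of Zfp809, changed by 0.39 ± 0.13 (SE, edgeR adjusted p = 0.0126) in mRNA, in the opposite direction. Zfp708 had 0 counts in the wild-type libraries, and 97.4% of its windows are shared.

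Further members were named for a known role. Zfp706, a small protein linked to the exit from self-renewal, changed by -0.29 ± 0.06 (SE, edgeR adjusted p = 7.62e-05) in mRNA, Zfp622 by -0.44 ± 0.07 (SE, edgeR adjusted p = 1.17e-07) and Zfp638 by 0.18 ± 0.06 (SE, edgeR adjusted p = 0.00694). Zfp609, a partner of NIPBL and Integrator, changed by 0.29 ± 0.08 (SE, edgeR adjusted p = 0.00224), Zfp644, a partner of the H3K9 methyltransferases G9a and GLP, by 0.39 ± 0.07 (SE, edgeR adjusted p = 1.54e-05) and Zfp827, which recruits NuRD to telomeres, by 0.24 ± 0.10 (SE, edgeR adjusted p = 0.037). Zfp687 (0.10) and Zfp830 (0.00), the latter a nuclear protein needed for splicing, did not pass.

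Changes in mRNA stability, the change in total relative to the change in nascent RNA, were small. No member was called by edgeR, DESeq2 or limma-voom, against 0.689% of all tested genes called higher and 0.393% called lower by edgeR. At an unadjusted p below 0.05, edgeR had 21 members higher and 16 lower. At an adjusted p below 0.05 with no limit on size, 7 were higher and 9 lower by edgeR, against 3.78% and 8.6% of all tested genes. DESeq2 had 8 and 4 and limma-voom 6 and 8 at that limit. For the unadjusted p and for these other methods the shares of all tested genes are not given here. Those counts are therefore not read as particular to the members. The median log2 change was -0.04, beside -0.09 for all tested genes. With TMM within each assay these medians became 0.05 and 0.00, so the sign of the member median depends on the scaling. Its distance from all genes could hardly change, as a scaling moves all genes by nearly the same amount.

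The largest loss of stability that passed was that of Zfp975, at -0.85 ± 0.18 (SE, edgeR adjusted p = 7.09e-04), and the largest gain that of Zfp772, at 0.86 ± 0.23 (SE, edgeR adjusted p = 0.0083). For Zfp975, the log2 ratio of total to 4sU was 0.80, 0.48 and 0.51 in wild type and -0.11, -0.26, -0.57 and -0.05 in Ddx6 KO. For Zfp772 it was -1.33, -1.37 and -1.78 in wild type and -0.43, -0.89, -0.67 and -0.80 in Ddx6 KO. The Ddx6 KO ratios lay below all wild-type ratios for Zfp975 and above them for Zfp772. On chromosome 17, the neighbours Zfp763 and Zfp871 rose in stability by 0.59 ± 0.13 (SE, edgeR adjusted p = 0.00106) and 0.53 ± 0.09 (SE, edgeR adjusted p = 3.99e-05). Zfp830 rose by 0.57 ± 0.11 (SE, edgeR adjusted p = 2.30e-04), with lower nascent RNA and an mRNA change of 0.00, and Zfp638 fell by 0.49 ± 0.09 (SE, edgeR adjusted p = 1.05e-04). In the chromosome 4 cluster, Zfp981 was the member that passed, at -0.39 ± 0.12 (SE, edgeR adjusted p = 0.0271), and the median of the 15 was -0.11.

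Few members passed an adjusted p of 0.05 between the 2 Ddx6 KO clones. With 2 cultures per clone, this does not show that the clones are alike. In total RNA, 1 of 148 members passed, against 0.296% of all tested genes, and in 4sU 0 did by edgeR, against 0.172%. At an unadjusted p below 0.05 by edgeR, 17 members differed in 4sU, 16 lower and 1 higher in clone 2 than in clone 1. In total RNA, 9 were lower and 6 higher at that limit. The shares of all tested genes at the unadjusted limit are not given here, so these counts are not read as particular to the members. The gene that passed the adjusted p was Zfp985 of the chromosome 4 cluster. It had 113 and 104 CPM of total RNA in clone 1, 77.9 and 80.8 in clone 2 and 136, 149 and 152 in wild type. Both clones were below wild type, clone 2 further.

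RNA of the silencing machinery that KRAB zinc fingers work through was read from a list of 26 genes. Of these, all tested, 6 were higher and 10 lower in mRNA at an adjusted p below 0.05, beside 19.5% and 31% of all tested genes, with a median log2 change of -0.09. The mRNA changes ran from -0.72 to 0.91. Trim28, the corepressor, had 2298 ± 34.5 CPM of total RNA over the 3 wild-type cultures (SD) and 1534 ± 105 over the 4 cultures without DDX6, a log2 change of -0.58 ± 0.05 (SE, edgeR adjusted p = 5.63e-15) in mRNA and -0.58 in nascent RNA. Setdb1, its methyltransferase, changed by -0.02 ± 0.06 in mRNA, which did not pass, and Smarcad1, a remodeller that binds TRIM28, by 0.61 ± 0.06, which did. The largest rise in the list was that of the de novo DNA methyltransferase Dnmt3a, at 0.91 ± 0.08, while Dnmt3b fell, with -0.72 ± 0.07.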

How the data were processed

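Per the labels and the study's methods, the authors removed adapters with Cutadapt 1.14, aligned to mm10 with STAR 2.5.3a keeping unique alignments, and summarised strand-specific reads over Gencode M14 basic genes without rRNA with featureCounts 1.5.3. The deposited values are raw counts with no normalization, beside the gene length in bases, deposited by the authors and used for levels per kb. Counts of the single-end and paired-end runs of each 4sU library were summed, since the study merged them. Polysome, ribosome profiling and Dgcr8 KO data were not analysed here.

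Genes passing the filter of 3 CPM were TMM scaled and tested in edgeR 4.0.16 (R 4.3.3) by the robust quasi-likelihood test, with terms for genotype, assay and the interaction, and Benjamini-Hochberg adjustment over 14518 genes. The interaction is the stability change. The SE is the absolute log2 change over the root of F. Ratios per culture used CPM plus 0.5. The p values measure the spread between these cultures, which may be technical. Depth limits what can be said of low genes. On simulated counts of 13400 genes for mRNA, 85 of 89 planted log2 changes of 1.5 and 94 of 95 of 2 were called. For stability the counts were 90 of 97 and 92 of 96. Planted genes that failed the filter are not in these counts, so they do not speak for the lowest genes.

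Fingers, KRAB matches and shared 50-base windows were read from the principal Gencode M21 transcript, promoters from RefSeq. The members, gene lists and tests were chosen with earlier results of these data known. Members are named when called in 1 of 3 Ddx6 KO contrasts (up to 10 on each side) or between clones, for the 5 highest levels per kb, the 5 highest and 5 lowest wild-type ratios, the 2 largest mRNA changes of each cluster or a known role. Some further genes are named to account for members or as neighbours, after their values were seen. Alternatives were DESeq2 1.42.0, limma-voom (limma 3.58.1), other scalings, filters, runs, clones, blocks, left-out cultures, thresholds and cluster gaps. Counts without the chromosome 4 cluster and without members with over 20% of windows shared were added after the data were seen.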

Additional observations from a re-analysis of the deposited data

Results flagged for a closer look

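In 8 of 128 groups of 4 Ddx6 KO cultures, for the named members in 4sU or total RNA, the highest or lowest culture stood far from the other 3 by Dixon's criterion, and chance flags about 1 in 20. Zfp709 in 4sU RNA had 63.2 CPM in clone 2 replicate 1 against 72.5 to 73.6 CPM in the other Ddx6 KO cultures. Zfp763 in total RNA had 50.6 CPM in clone 1 replicate 2 against 54.5 to 55.3 CPM in the other Ddx6 KO cultures. Zfp770 in 4sU RNA had 192 CPM in clone 1 replicate 1 against 207 CPM in each of the other Ddx6 KO cultures. Zfp772 in total RNA had 12.2 CPM in clone 1 replicate 2 against 13.8 to 14.2 CPM in the other Ddx6 KO cultures. Zfp827 in 4sU RNA had 71.4 CPM in clone 2 replicate 2 against 81.3 to 82.9 CPM in the other Ddx6 KO cultures. Zfp865 in total RNA had 15.1 CPM in clone 2 replicate 1 against 18.1 to 18.7 CPM in the other Ddx6 KO cultures. Zfp871 in 4sU RNA had 235 CPM in clone 2 replicate 1 against 212 to 215 CPM in the other Ddx6 KO cultures. Zfp959 in 4sU RNA had 24.2 CPM in clone 2 replicate 2 against 29.1 to 30.1 CPM in the other Ddx6 KO cultures.

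Zfp985 differed between the Ddx6 KO clones in mRNA, with a log2 difference of clone 2 minus clone 1 of -0.45 (edgeR adjusted p = 0.00514) and both cultures of clone 2 below both of clone 1.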

How the results depend on the processing

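Beside 2 members called higher and 7 lower in nascent RNA and 4 higher and 10 lower in mRNA, library size alone gave 6, 4, 7 and 6 and the adjusted p alone 28, 42, 35 and 41. A filter that asks for 3 CPM in all libraries of 4sU or of total RNA left 0 higher in nascent RNA and 2 in mRNA, as it drops low genes, and the re-sequencing run alone gave 4 higher in nascent RNA. Without chromosome 6, 2 were higher in mRNA. Without the chromosome 4 cluster 4 were lower in nascent RNA and 5 in mRNA, and without members with many shared windows 4 and 3. Leaving out 1 culture gave 1 to 4 higher and 6 to 9 lower in nascent RNA, and 4 to 5 higher and 9 to 11 lower in mRNA. The count of 1 higher came without Ddx6 KO clone 2 replicate 1 and that of 4 without wild type replicate 2. For stability, where none was called, the adjusted p alone gave 7 higher and 9 lower, the first run alone 1 higher, and leaving out 1 culture 0 to 0 higher and 0 to 1 lower, the 1 without wild type replicate 3.

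The replicate number as a replicate block gave 2 and 7 in nascent RNA and 4 and 8 in mRNA, and the culture as a replicate block called none in stability. Same-numbered cultures did not deviate together (correlations of -0.04 to 0.09), and the 4sU and total libraries of a culture did so weakly (0.00 to 0.12).

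The wild-type ratio of members minus all genes, -0.93, became -0.73 with no filter beyond 1 count, -1.09 with 3 CPM in all libraries of an assay, -0.98 with the re-sequencing run alone and -0.98 without chromosome 6. It ranged from -0.95 to -0.88 with 1 wild-type culture left out. The cause was not tested. Clusters held 101 members with a gap of 0.5 Mb and 117 with 2 Mb, against 111. For called genes, 369 of 404 alternative values stayed called and 35 fell short with the direction kept, among them Zfp982 in mRNA and Zfp629 in nascent RNA, whose changes lie just past the threshold. Settings under which a called gene did not pass the filter, as for Zfp608 and Zfp618, are left out of the 404.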
